A study of Mus musculus with 5 samples.

Results

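Genes of the major histocompatibility complex (MHC) and of antigen presentation were examined in kidney cortical tissue of *Fnip1* null and wildtype mice. Members were the genes whose symbol starts with H2-, the prefix of the mouse MHC, together with 16 genes named for their part in loading or making presented peptides: Cd74, B2m, Tap1, Tap2, Tapbp, Tapbpl, Ciita, Nlrc5, Psmb8, Psmb9, Psmb10, Psme1, Psme2, Erap1, Calr and Pdia3. This gave 59 of the 24421 genes in the count files. Of these, 37 passed the filter on low counts, which needed at least 10 counts in 3 or more of the 5 mice, and 22 did not. RNAseq libraries were made from 3 *Fnip1* null mice (8637, 9210 and 9121; genotype Fnip1-/-) and 2 wildtype mice (9055 and 9056; genotype Fnip1+/+), all on the C57BL6J background, and each mouse gave 1 library. The study's text in places gives the control genotype as Fnip1+/-, with a copy of the null allele, and names a further wildtype mouse that was not analysed here. The labels were followed, and which genotype the mice called wildtype carry was not settled from the counts. The null allele came from ENU mutagenesis and is carried by the whole animal, so every cell type of the kidney lacks the gene product and effects of other organs on the kidney are not set apart. The mice were untreated as far as the labels state, and neither the age nor the sex of a mouse is labelled. The study's text gives a range of several weeks for the age of the mice sequenced, but no age for each mouse. *Fnip1* encodes a binding partner of Folliculin.

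Class I molecules carry peptides of the cell's own proteins to its surface, where cytotoxic T cells read them; they consist of a heavy chain and the light chain B2m, and nearly every nucleated cell makes them. Their peptides are cut by the proteasome, whose interferon-inducible form holds Psmb8, Psmb9 and Psmb10, are pumped into the endoplasmic reticulum by Tap1 and Tap2, and are loaded with the help of Tapbp, Calr and Pdia3. Class II molecules are pairs of an alpha and a beta chain that show peptides of engulfed proteins to helper T cells; they are made mainly by dendritic cells, macrophages and B cells, and in the kidney also by interferon-treated tubule cells. Nlrc5 switches on class I genes and Ciita class II genes, both by joining factors that sit on a shared set of promoter boxes (the X and Y boxes).

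Depth was 15799114 to 19132145 gene counts per mouse, and 3 counts in a mouse corresponded to 0.158 to 0.186 normalized CPM (counts scaled to a library of fixed size after TMM normalization), below which a level was not told from 0. *Fnip1* itself measured 21.0, 16.9 and 16.0 normalized CPM in null mice 8637, 9210 and 9121, against 51.7 and 48.7 in wildtype mice 9055 and 9056, a log2 fold change of -1.48 (SE 0.138, adjusted p = 0.0330) in edgeR's quasi-likelihood test. All 14 markers of kidney cortex cells examined were detected in every mouse, and their summed level ran from 16735 to 19162 normalized CPM. Mouse 9121 stood apart from the other mice: Xist, the transcript of the inactive X chromosome, measured 314 normalized CPM there and 0.172 to 1.41 in the others, and the Y-linked gene Ddx3y measured 0 there and 42.8 to 52.1 in the others. Read by these transcripts, mouse 9121 is female and the other mice, both wildtype mice among them, are male. The null group thus holds both sexes, although the labels give none. Results are therefore also given without mouse 9121. The mouse labelled 9210 carries another mouse number in the name of its deposited data, and the label was followed.

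The promoter boxes are shown first because the activators of class I and class II genes act through them. Sequences run 5′ to 3′ on the coding strand and are taken from RefSeq promoters of GRCm38.p6, the windows from 250 bases before to 50 bases after each transcript start. Windows were found for 42 of the 59 members, and Cd74, H2-Ab1, Ciita, Nlrc5, Tap2 and Tapbpl were among those without one. In the class II genes below, capitals mark an X box core (GCAAC) and the Y box core (GATTGG):
H2-Aa: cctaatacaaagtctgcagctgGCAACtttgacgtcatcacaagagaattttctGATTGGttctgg
H2-Eb1: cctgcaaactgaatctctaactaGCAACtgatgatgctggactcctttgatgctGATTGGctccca
H2-Eb2: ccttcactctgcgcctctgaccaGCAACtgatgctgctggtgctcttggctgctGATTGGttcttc
H2-Ob: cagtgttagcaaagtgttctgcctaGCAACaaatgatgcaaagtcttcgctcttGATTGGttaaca
H2-Oa: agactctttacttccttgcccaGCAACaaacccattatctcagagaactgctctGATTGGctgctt
H2-DMb2: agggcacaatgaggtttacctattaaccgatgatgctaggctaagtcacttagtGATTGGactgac
These stretches lie at chr17:34287861-34287926 (- strand), chr17:34305753-34305818 (+ strand), chr17:34325520-34325585 (+ strand), chr17:34238793-34238858 (+ strand), chr17:34092281-34092346 (+ strand) and chr17:34145104-34145169 (+ strand). All are upstream of the RefSeq transcript start. The last 7 bases of the H2-Oa stretch fall in the 5′ untranslated part of a GENCODE M21 transcript.

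The Y box core stood on the coding strand in 8 of the 8 class II genes with a window, against 9.91% of 27025 genes. Its first base lay 49 bases before the transcript start in H2-Aa, 60 in H2-Eb1 and 62 in H2-DMb1. It lay farther off in H2-DMb2 (91), H2-Eb2 (101) and H2-DMa (199), so the position was not shared by all of them. An X box core lay 15 to 35 bases 5′ of it in 5 of the 8 genes (H2-Aa, H2-Eb1, H2-Eb2, H2-Ob and H2-Oa), against 0.222% of all genes, and the bases between both cores numbered 24 to 27. In H2-DMb2, shown above, the GCAAC letters were not found at that place. This search used only Y box cores on the coding strand. B2m has a core there, and no such pair was found. Of the class I heavy chain genes, 0 of 2 classical and 1 of 20 non-classical ones have a core there. For the others the search could not find a pair, so it does not show whether class I genes hold one.

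In class I genes the letters searched as the Y box core were found mostly on the opposite strand, where they appear as CCAATC. They were found there in both classical class I genes (H2-K1 and H2-D1) and in 14 of 20 non-classical ones, against 9.62% of all genes. Below, capitals mark, from the 5′ end, a kappaB motif (GGGNNTTCC) where present, an interferon regulatory factor (IRF) core (AANNGAAA, or its reverse complement) and the Y box core on either strand:
H2-K1: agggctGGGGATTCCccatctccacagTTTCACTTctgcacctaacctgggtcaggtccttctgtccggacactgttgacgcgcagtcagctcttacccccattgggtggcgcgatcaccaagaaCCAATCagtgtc
H2-Q4: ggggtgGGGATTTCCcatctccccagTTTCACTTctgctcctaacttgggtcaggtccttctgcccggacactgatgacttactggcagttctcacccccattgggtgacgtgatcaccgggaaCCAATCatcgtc
B2m: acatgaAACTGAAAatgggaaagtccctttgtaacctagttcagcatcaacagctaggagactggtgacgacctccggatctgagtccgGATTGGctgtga
They lie at chr17:34000328-34000464 (- strand), chr17:35379438-35379573 (+ strand) and chr2:122147544-122147644 (+ strand). The last 20 bases of the H2-K1 stretch are 5′ untranslated sequence, since its CCAATC letters lie just after 1 of its 2 annotated starts and just before the other. The H2-Q4 stretch also lies in an exon of Gm11131, an antisense RNA gene.

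B2m lacks the kappaB motif in this window and has the GATTGG letters on the coding strand, as the class II genes do. The H2-K1 and H2-Q4 stretches also hold CATTGG on the coding strand. It differs from the searched letters in its first base and was not marked. Which of these matches is the Y box of the class I genes was not tested, so the strand given is that of the letters searched. Searched on both strands, the IRF core was found in 23 of 42 members and in 26.7% of all genes, and the kappaB motif in 8 of 42 members and in 6.58% of all genes. All of the Y box, IRF and kappaB motifs were found in the windows of 7 members, against 0.278% of all genes. The members are related by descent and many share sequence, so these counts are descriptions of the windows and were not tested.

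With all 5 mice, the quasi-likelihood test called no member higher or lower in *Fnip1* null tissue at a false discovery rate (FDR) of 0.05 and at least 2-fold. Over all 13874 genes tested, the same rule called 0.404% higher and 0.123% lower. At an unadjusted p under 0.05, 12 of 37 members were higher and 2 were lower in null tissue, against 14.0% and 11.2% of all genes. The exact test of edgeR called 3 members higher (H2-DMb1, H2-Eb1 and H2-Q8), against 3.03% of all genes, and none lower, against 1.04%. DESeq2 called 6 higher, adding H2-Aa, H2-DMa and Nlrc5, against 2.61%, and none lower, against 0.865%. Each value is an average over the cells of the cortex, so fewer cells of a type and less RNA per cell cannot be told apart.

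Most members had the same direction. The log2 fold change (null minus wildtype) was positive in 32 of 37 members, against 50.5% of all genes, with a median of 0.71 over the members and 0.0035 over all genes. In 21 of 37 members every null mouse was above both wildtype mice, against 22.9% of all genes, and in 3 members (Calr, Pdia3 and H2-Ke6) every null mouse was below both, against 23.0%. Of the 21, H2-DMb2 passed the filter through the null mice alone, with under 10 counts in both wildtype mice. H2-Ke6, which carries the prefix by position but encodes a hydroxysteroid dehydrogenase and is no MHC molecule, had a log2 fold change of -0.16, which became 0.0012 with library size as the only scaling.

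**Figure D1:**
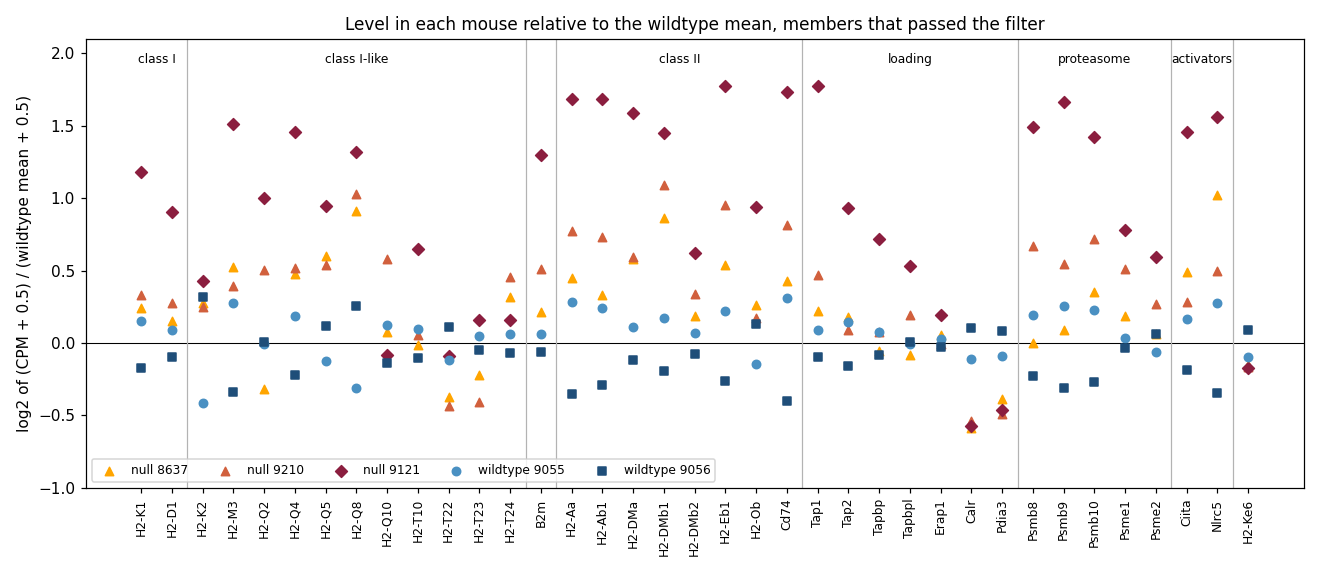
Level of each of the 37 members that passed the filter, on the vertical axis as log2 of CPM plus 0.5 over the wildtype mean plus 0.5, with 1 point per mouse and genes grouped by role from left to right. Mouse 9121 (dark diamonds) is the highest of the 5 mice for 31 members, and Calr, Pdia3 and H2-Ke6 are the genes with all null mice below both wildtype mice, although the sign for H2-Ke6 turns with library size as the only scaling.

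The null mice did not share this equally. Mouse 9121 was the highest of the 5 mice for 31 of 37 members, against 25.9% of all genes, and mouse 8637 was the lowest null mouse for 23, against 40.3%. Without mouse 9121, the median of the members was 0.37, and 32 were still positive. Mice 8637 and 9210 were both above both wildtype mice for 21 of 37 members, against 26.5% of all genes. Without mouse 8637, the median was 0.88, and the quasi-likelihood test called 8 of the 38 members tested higher, against 4.74% of all genes. These were Cd74, H2-Aa, H2-Ab1, H2-Eb1, H2-DMb1, H2-Q8, Psmb8 and Psmb10. Mouse 9121 is also the only mouse read as female, and the part that its sex has in these values was not tested.

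Of the heavy chains, the classical class I genes H2-K1 (ENSMUSG00000061232, chr17:33996017-34000347) and H2-D1 (chr17:35262730-35267499) present peptides to cytotoxic T cells. H2-K1 measured 250.2, 267 and 481 normalized CPM in mice 8637, 9210 and 9121, and 236 and 188 in mice 9055 and 9056. H2-D1 measured 134, 145 and 225, and 128 and 112, in the same order of mice, which is kept from here on. In both genes the null mice lay above the wildtype mice, but mice 8637 and 9210 lay close to mouse 9055 and only 9121 lay far from it. The log2 fold change was 0.65 (SE 0.305, adjusted p = 0.240) for H2-K1 and 0.49 (SE 0.233, adjusted p = 0.249) for H2-D1 in the quasi-likelihood test, and 0.29 and 0.22 without mouse 9121. H2-L, the remaining classical gene, which the b haplotype of C57BL mice does not carry, had 0, 0 and 3 counts in the null mice and 0 and 1 in the wildtype mice.

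B2m (ENSMUSG00000060802, chr2:122147686-122153083), the light chain that all class I heavy chains need to reach the surface, measured 243, 299.9 and 517 normalized CPM in the null mice and 219 and 201 in the wildtype mice. The groups did not overlap, and the log2 fold change was 0.75 (SE 0.314, adjusted p = 0.201). Per 100 normalized CPM of B2m, H2-K1 stood at 103, 89.0 and 93.1 in the null mice and 108 and 93.6 in the wildtype mice, ranges that overlapped. Per kilobase of exon, B2m stood at 411 and 244 normalized CPM on average in null and wildtype tissue, ahead of H2-K1 at 113 and 72.2 and H2-D1 at 65.1 and 46.5. On this scale B2m had the highest level of the members in null tissue, and the chaperone gene Calr, at 264, in wildtype tissue.

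The non-classical class I genes include molecules with narrow ligands, and 11 of 29 passed the filter. Of these, 9 had a positive log2 fold change, against 50.5% of all genes, and the median of the 11 was 0.42. In 5 every null mouse was above both wildtype mice, against 22.9% of all genes. H2-Q4 (chr17:35379617-35385290), a gene of the Q region, measured 37.3, 38.4 and 74.0 normalized CPM in the null and 30.5 and 22.9 in the wildtype mice. Its null mice were all higher, with a log2 fold change of 0.91 (SE 0.335, adjusted p = 0.168). H2-T23 (chr17:36029773-36032855) encodes the Qa-1 molecule, which shows leader peptides of other class I chains to natural killer cell receptors. It measured 78.9, 69.1 and 103 normalized CPM in the null and 94.8 and 88.8 in the wildtype mice. Here the groups overlapped, with mice 8637 and 9210 below both wildtype mice and mouse 9121 above them, and the log2 fold change of -0.14 (SE 0.169, adjusted p = 0.643) became 0.031 with library size as the only scaling.

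H2-Q8 had the highest fold change of the members at a low level. Its counts were 31, 34 and 49 in the null mice and 8 and 17 in the wildtype mice, or 1.83, 2.02 and 2.58 and 0.497 and 0.972 normalized CPM. The null mice were all above, with a log2 fold change of 1.53 (SE 0.381, adjusted p = 0.0985) and an adjusted p of 0.0143 in the exact test of edgeR. Its place in the genome is not given here because the symbol had no match in GENCODE M21. The related H2-Q6, H2-Q7 and H2-Q9 were at 0 in all 5 mice, and class I genes share long runs of sequence. For H2-Q4 and for H2-Q5, 36.4% of the 50-base windows of the transcripts also occur in another gene. For H2-T10 and H2-T22 the shares are 50.4% and 53.5%, and for H2-K1 and H2-D1 they are 9.63% and 12.8%. Of the exon bases of H2-Q4, 19.1% also lie in exons of Gm11131. Reads that match more than 1 gene were not counted, so values of the Q and T region genes are uncertain.

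The other 18 non-classical genes did not pass the filter. Of them 13 had 0 counts in every mouse: H2-Q6, H2-Q7, H2-Q9, H2-T3, H2-T9, H2-M1, H2-M9, H2-M10.1, H2-M10.2, H2-M10.3, H2-M10.4, H2-M10.6 and H2-M11. H2-Q1 had 5, 7 and 11 counts in the null mice and 2 and 2 in the wildtype mice, and H2-M2 had 5, 7 and 12 and 1 and 0. Both were higher in every null mouse, but most of these counts are near the 3 counts below which a level was not told from 0.

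Class II was the largest group in which every gene that passed the filter had the same order of the groups. In these 8 of 11 genes mouse 9121 was the highest mouse, against 25.9% of all genes. Every null mouse was above both wildtype mice in each of them, against 22.9% of all genes. The same held for null mice 8637 and 9210 alone, against 26.5%. The classical class I genes, B2m and the transactivators, groups of 1 or 2 genes that passed, had this order too. For H2-DMb2 the filter itself favoured that order, since its 11, 13 and 20 counts in the null and 9 and 8 in the wildtype mice passed through the null mice alone. Of the 3 class II genes that did not pass, H2-Oa had 6, 10 and 21 counts in the null and 8 and 5 in the wildtype mice, H2-Eb2 had 0, 2 and 3 and 1 and 2, both with overlapping groups, and H2-Ea-ps had none. The 8 genes' median log2 fold change was 1.07, and 0.63 without mouse 9121. The summed level of the 11 genes was 497, 643 and 1194 normalized CPM in the null mice and 438 and 288 in the wildtype mice, and mouse 8637 was nearer to wildtype mouse 9055 than to mouse 9121.

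H2-Aa (ENSMUSG00000036594, chr17:34282744-34287823) encodes the alpha chain of I-A, the class II molecule of C57BL mice. It measured 74.2, 93.1 and 175 normalized CPM in the null and 66.0 and 42.4 in the wildtype mice. The log2 fold change was 1.08 (SE 0.395, adjusted p = 0.167), with an adjusted p of 0.0366 by DESeq2. H2-Ab1 (chr17:34257689-34269419), the beta chain of I-A, measured 92.9, 123 and 239 in the null and 87.4 and 60.1 in the wildtype mice, and its log2 fold change was 1.04 (SE 0.412, adjusted p = 0.187). Both chains of the pair ranked the 5 mice in the same order, 9121 highest and 9056 lowest. H2-Eb1 (ENSMUSG00000060586, chr17:34305867-34316674), the beta chain of I-E, measured 82.3, 110.1 and 195 in the null and 66.1 and 47.0 in the wildtype mice. Its log2 fold change was 1.19 (SE 0.375, adjusted p = 0.131), and edgeR's exact test put the adjusted p at 0.0322. Its alpha chain partner H2-Ea-ps, a pseudogene in the b haplotype, had 0 counts in all 5 mice, which allows at most 0.186 normalized CPM in a mouse (3 counts).

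Cd74 (ENSMUSG00000024610, chr18:60803848-60812652), the invariant chain, escorts class II molecules and blocks their groove until they reach the endosome. Cd74 measured 214, 279 and 527 normalized CPM in the null and 197 and 120.1 in the wildtype mice, the same order of mice as for the chains it escorts. This was a log2 fold change of 1.10 (SE 0.417, adjusted p = 0.175), and 0.64 (SE 0.240) without mouse 9121. Per kilobase of exon, Cd74 stood at 202 and 94.3 normalized CPM in null and wildtype tissue, above H2-Eb1 at 66.4 and 29.1, H2-Ab1 at 59.0 and 28.7 and H2-Aa at 30.1 and 14.3. H2-Ab1 and H2-Eb1 differed on that scale by less than the spread between mice. The scale divides by the union of all annotated exons, 3.80 kb for H2-Aa and 2.57 kb for H2-Ab1. Which transcripts the kidney makes was not tested, so the order of these genes is uncertain.

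The peptide editor H2-DM removes the invariant chain fragment from class II. Its beta chain gene H2-DMb1 (ENSMUSG00000079547, chr17:34153072-34160230) measured 19.9, 23.5 and 30.2 normalized CPM in the null and 12.2 and 9.32 in the wildtype mice. This was the member least dependent on mouse 9121 among the class II genes with at least 20 normalized CPM in a null mouse: the lowest null mouse lay well above the highest wildtype mouse, and the log2 fold change was 1.19 (SE 0.221, adjusted p = 0.0682) with all mice and 1.01 (SE 0.186, adjusted p = 0.0570) without 9121. Adjusted p was 0.000267 with edgeR's exact test and 0.00021 with DESeq2. H2-DMb1 shares 22.7% of its 50-base windows with its copy H2-DMb2, whose own level was at most 1.05 normalized CPM in a mouse. The alpha chain gene H2-DMa, at 6.86 to 23.6 normalized CPM, had a log2 fold change of 1.06 (SE 0.361, adjusted p = 0.149). H2-Ob, a chain of the H2-DO molecule that restrains H2-DM, stayed at 0.807 to 2.27 normalized CPM with a log2 fold change of 0.71 (SE 0.434), and its partner H2-Oa and H2-Eb2 did not pass the filter.

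The class II transactivator Ciita (chr16:10480059-10528418), which is required for class II expression, measured 7.13, 6.12 and 14.4 normalized CPM in the null and 5.59 and 4.29 in the wildtype mice. Nlrc5 (chr8:94434356-94527272), its class I counterpart, measured 7.72, 5.23 and 11.4 in the null and 4.41 and 2.69 in the wildtype mice. In both the null mice were all above the wildtype mice, but mouse 8637 was above 9210, unlike in H2-K1, H2-D1 and the 3 class II chain genes above. The log2 fold change was 0.91 (SE 0.407, adjusted p = 0.225) for Ciita and 1.20 (SE 0.391, adjusted p = 0.139) for Nlrc5, and for Nlrc5 DESeq2 gave an adjusted p of 0.0445. The DNA-bound partners of both activators were measured too: Rfx5, Rfxap and Rfxank, the proteins on the X box, had log2 fold changes of -0.08, 0.23 and -0.01, and Nfya, Nfyb and Nfyc, the trimer on the Y box, -0.40, 0.11 and 0.19. Of these 6 genes none passed the test, with adjusted p from 0.213 to 0.963 in the quasi-likelihood test.

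**Figure D2:**
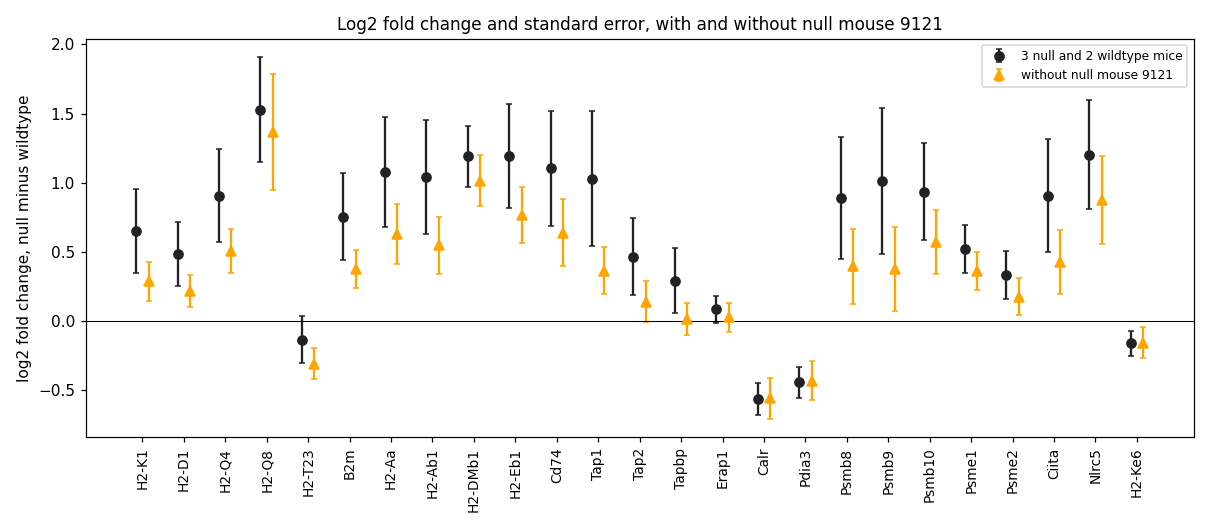
Log2 fold change (null minus wildtype) with its standard error from the quasi-likelihood fit, for the 25 members whose values per mouse are given, with all 5 mice (black circles) and without null mouse 9121 (orange triangles). H2-DMb1 moves from 1.19 to 1.01 and Tap1 from 1.03 to 0.36, while Calr is at -0.56 in both.

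Peptide transport and loading did not follow 1 direction. Tap1 (ENSMUSG00000037321, chr17:34187553-34197225), a subunit of the peptide pump, measured 13.7, 16.3 and 41.1 normalized CPM in the null and 12.4 and 10.9 in the wildtype mice. The groups did not overlap, but mouse 9121 was 3.31 times the highest wildtype mouse while mice 8637 and 9210 were nearer to it. Its log2 fold change of 1.03 (SE 0.488, adjusted p = 0.245) was 0.36 without 9121. Tap2 (chr17:34203527-34216321), the other subunit, measured 27.9, 26.3 and 47.6 in the null and 27.3 and 22.0 in the wildtype mice, with overlapping groups and a log2 fold change of 0.46 (SE 0.280, adjusted p = 0.342). Tapbp (chr17:33915899-33929292), the tapasin that bridges the pump to class I, measured 98.8, 108 and 169 in the null and 108 and 96.7 in the wildtype mice, also overlapping, at 0.29 (SE 0.236, adjusted p = 0.470). Part of its exons, 29.0%, lies within other annotated genes. Tapbpl, a tapasin relative, had a log2 fold change of 0.24 (SE 0.194).

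Erap1 (chr13:74639568-74693201), the aminopeptidase that trims peptides in the endoplasmic reticulum, measured 50.4, 48.1 and 55.3 normalized CPM in the null and 49.4 and 47.3 in the wildtype mice. The groups overlapped within a narrow range, and the log2 fold change was 0.08 (SE 0.0978, adjusted p = 0.618), with a 9121 value 1.12 times the highest wildtype mouse.

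The 2 chaperone genes of the loading complex had the opposite direction. Calr (ENSMUSG00000003814, chr8:84841850-84846934), calreticulin, a lectin chaperone that holds the class I chain, measured 506, 524 and 510.3 normalized CPM in the null and 704 and 815 in the wildtype mice. Pdia3 (ENSMUSG00000027248, chr2:121413775-121438687), the disulphide isomerase of the same complex, measured 480.0, 447 and 454 in the null and 588 and 665 in the wildtype mice. In both genes the 3 null mice lay close together and below both wildtype mice, and mouse 9121 did not stand apart. The log2 fold change was -0.56 (SE 0.118, adjusted p = 0.0774) for Calr and -0.44 (SE 0.113, adjusted p = 0.101) for Pdia3 in the quasi-likelihood test. With edgeR's exact test they had adjusted p of 0.0192 and 0.0780, and with DESeq2 0.000155 and 0.00434, and neither gene reached 2-fold. The general chaperones of the same compartment from the list of 26 processing partners had the same sign. Their log2 fold changes were -0.31 for Canx (calnexin), -0.42 for Hspa5 (BiP) and -0.34 for Pdia6. None passed the quasi-likelihood test, with adjusted p from 0.119 to 0.217. Every null mouse was below both wildtype mice in these genes, as in 8 of the 26 partners and in 23.0% of all genes. In 10 of the 26 every null mouse was above both, against 22.9% of all genes.

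In the proteasome, Psmb8, Psmb9 and Psmb10 are the catalytic subunits that interferon gamma induces and that replace Psmb5, Psmb6 and Psmb7. Psmb8 (chr17:34197721-34201454) measured 9.42, 15.3 and 27.4 normalized CPM in the null and 10.9 and 8.004 in the wildtype mice. Psmb9 (chr17:34181987-34187764) measured 4.54, 6.42 and 14.5 and 5.15 and 3.32. For both, mouse 8637 lay between the wildtype mice and the groups overlapped. Psmb10 (chr8:105935735-105938444) measured 13.3, 17.3 and 28.4 in the null and 12.2 and 8.46 in the wildtype mice, with no overlap. Their log2 fold changes were 0.89 (SE 0.441), 1.01 (SE 0.526) and 0.93 (SE 0.349), with adjusted p between 0.171 and 0.279 in the quasi-likelihood test. Psmb8 and Psmb9 adjoin Tap1 and Tap2 in the class II region, and Psmb10 lies on another chromosome.

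Psme1 (chr14:55578123-55581529) and Psme2 (chr14:55587441-55591113) form the PA28 cap, which interferon gamma also induces. Psme1 measured 55.9, 70.3 and 84.8 normalized CPM in the null and 50.3 and 47.9 in the wildtype mice, without overlap, at a log2 fold change of 0.52 (SE 0.176, adjusted p = 0.147). Psme2 measured 30.4, 35.3 and 44.2 and 27.8 and 30.4, with mouse 8637 level with mouse 9056, at 0.33 (SE 0.170, adjusted p = 0.274). Of the 50-base windows of Psme2, 28.3% also occur in Psme2b or another copy.

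The constitutive subunits were read beside the inducible ones. The sum of Psmb5, Psmb6 and Psmb7 was 363, 371 and 364 normalized CPM in the null and 399 and 451 in the wildtype mice. Per 100 normalized CPM of that sum, the sum of the 3 inducible subunits was 7.51, 10.5 and 19.3 in the null and 7.07 and 4.39 in the wildtype mice, a ratio within each library that does not depend on its scaling. All null mice were above both wildtype mice in this ratio, mouse 8637 only just, and mouse 9121 furthest. Taken pair by pair, Psmb8 per 100 of Psmb5 and Psmb10 per 100 of Psmb7 separated the groups in the same way, but Psmb9 per 100 of Psmb6 did not, at 4.36, 5.86 and 13.1 in the null and 4.87 and 2.85 in the wildtype mice, with mouse 8637 below mouse 9055. Of the 16 constitutive proteasome genes listed, none was called in either direction by the quasi-likelihood test, the exact test or DESeq2. Over all genes these tests called at most 3.03% in a direction. At an unadjusted p under 0.05, 2 were lower, against 11.2% of all genes. The log2 fold change was negative for 15, against 6865 of all 13874 genes, and the median of the 16 was -0.16. With library size as the only scaling 10 were positive, against 10109 of all 13874 genes.

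**Figure D3:**
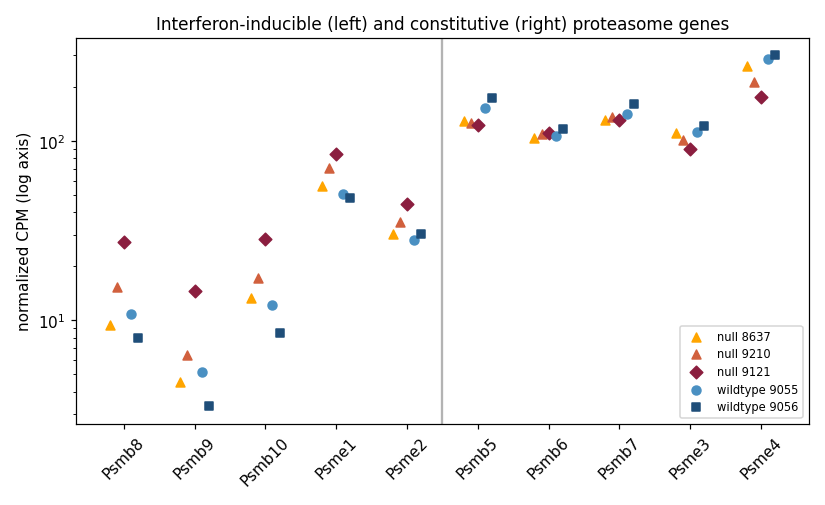
Normalized CPM (log axis) of the 5 interferon-inducible proteasome genes, left of the line, and of 5 constitutive ones, right of it, with 1 point per mouse. Psmb8, Psmb9 and Psmb10 span 3.32 to 28.4 normalized CPM with mouse 9121 on top, while Psmb6 spans 104 to 116.

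Other genes of antigen processing were read from a list of 26. The quasi-likelihood test called none of them, with 4 higher and 5 lower at an unadjusted p under 0.05, against 14.0% and 11.2% of all genes. The exact test of edgeR called 2 higher and 1 lower, against 3.03% and 1.04% of all genes, and DESeq2 called 2 higher, against 2.61%. Of the 26, 14 had a positive log2 fold change, against 50.5% of all genes, with a median of 0.01. Ctss, cathepsin S, which cuts the invariant chain, measured 15.5, 22.0 and 36.7 normalized CPM in the null and 9.62 and 5.83 in the wildtype mice, at a log2 fold change of 1.68 (SE 0.412, adjusted p = 0.0965) and an adjusted p of 0.00335 in the exact test. Mr1, a class I-like molecule that shows vitamin metabolites, was at 1.06 (SE 0.334, adjusted p = 0.131), with 0.0441 in the exact test. Azgp1, a secreted class I-like protein, measured 40.8, 19.5 and 9.39 in the null and 83.8 and 94.0 in the wildtype mice, at -1.94 (SE 0.524, adjusted p = 0.107), with 0.00720 in the exact test. Of the 9 costimulation genes 4 passed the filter, all positive, against 50.5% of all genes. Cd86, a ligand of the T cell receptor partner CD28, was at 0.93 (SE 0.405) and at most 2.58 normalized CPM in a mouse.

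Interferon gamma induces both classes of MHC, and 21 genes of its pathway were listed, of which 19 passed the filter. None was called by the quasi-likelihood test, the exact test or DESeq2, which over all genes called at most 3.03% in a direction. At an unadjusted p under 0.05, 2 were higher, against 14.0% of all genes. The log2 fold change was positive for 16 with all mice, against 50.5% of all genes, and for 7 without mouse 9121. Mouse 9121 was the highest mouse for 17 of 19, against 25.9% of all genes. The cytokine gene Ifng itself had at most 0.119 normalized CPM in a mouse, under the level of 3 counts. Irf1, a factor that binds the IRF core, measured 17.5, 17.6 and 40.0 normalized CPM in the null and 14.1 and 10.3 in the wildtype mice, at 1.04 (SE 0.412, adjusted p = 0.187). Summed over 9 interferon-induced GTPases of the Gbp and Irg families, the level was 138, 144 and 429 in the null and 180.5 and 139.5 in the wildtype mice. By this sum, mice 8637 and 9210 were within or below the wildtype range and 9121 was above it, whereas the class II sum was above wildtype in all 3 null mice. The part of interferon in the member values was not tested.

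Since class II genes are made by leukocytes, markers of those cells were read beside them. All 15 macrophage and dendritic cell markers found passed the filter, Flt3 and Xcr1 through the null mice alone. The quasi-likelihood test called none of them, the lowest adjusted p being 0.0567, while DESeq2 called 7 higher, against 2.61% of all genes, and the exact test 9, against 3.03%. A positive log2 fold change was found in 14 of the 15, against 50.5% of all genes, with a median of 1.43. In 12 of the 15, Flt3 and Xcr1 among them, every null mouse was above both wildtype mice, against 22.9% of all genes. The summed level of the 15 ran from 102 to 211 normalized CPM in null and from 101 to 123 in wildtype mice, so the groups overlapped. Csf1r alone made up 38.2, 36.4 and 63.8 of these sums in the null and 72.3 and 68.4 in the wildtype mice. Csf1r, the macrophage growth factor receptor and the gene with the most CPM in the list, was below both wildtype mice in every null mouse, at -0.61 (SE 0.246, adjusted p = 0.193). Ptprc, the CD45 gene of all leukocytes, measured 11.4, 14.6 and 20.1 normalized CPM in the null and 9.44 and 5.66 in the wildtype mice, the same order as the class II sum. Divided by Ptprc, the class II sum was 43.7, 44.2 and 59.3 in the null and 46.4 and 50.8 in the wildtype mice, ranges that overlapped. Divided by Adgre1, the F4/80 gene of macrophages, it was 67.4, 71.6 and 87.4 in the null and 119.6 and 88.3 in the wildtype mice, with the null mice all below.

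B cell markers were low in every mouse. Cd79a, a chain of the B cell receptor complex, was at 0 in all 3 null mice and at 0.745 and 0.343 normalized CPM in the wildtype mice. The 7 markers read summed to 2.24, 5.17 and 3.48 in the null and 4.72 and 4.06 in the wildtype mice, with 4, 4 and 2 of them at 0 in mice 8637, 9210 and 9121. Cd79b, the partner chain of Cd79a, measured 0.530, 0.0594 and 0.580 in the null and 1.49 and 1.20 in the wildtype mice, with every null mouse below both, at a log2 fold change of -1.74 (SE 0.606, adjusted p = 0.154) and an adjusted p of 0.0405 in edgeR's exact test. Cr2, a complement receptor gene, made up 1.53, 4.69 and 2.27 of these sums in the null and 1.43 and 1.60 in the wildtype mice. The 10 T and natural killer cell markers summed to 7.83, 10.5 and 19.5 in the null and 7.14 and 3.09 in the wildtype mice. Of these, 7 passed the filter with positive log2 fold changes, but Cd3d and Nkg7 passed through the null mice alone. Endothelial markers summed to 468, 532 and 618 in the null and 456 and 275 in the wildtype mice, and all 8 were positive. Over all genes, 50.5% were positive. Of 7 neutrophil markers, S100a8 and S100a9 passed the filter, both through the null mice alone, so that a higher level in null tissue was a condition of passing. S100a8 had 15, 37 and 49 counts in the null and 1 and 2 in the wildtype mice, and S100a9 had 60, 69 and 74 and 5 and 5. Camp, Mpo and Elane were at 0 in all mice. The part of these cell types in the member values was not tested.

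**Figure D4:**
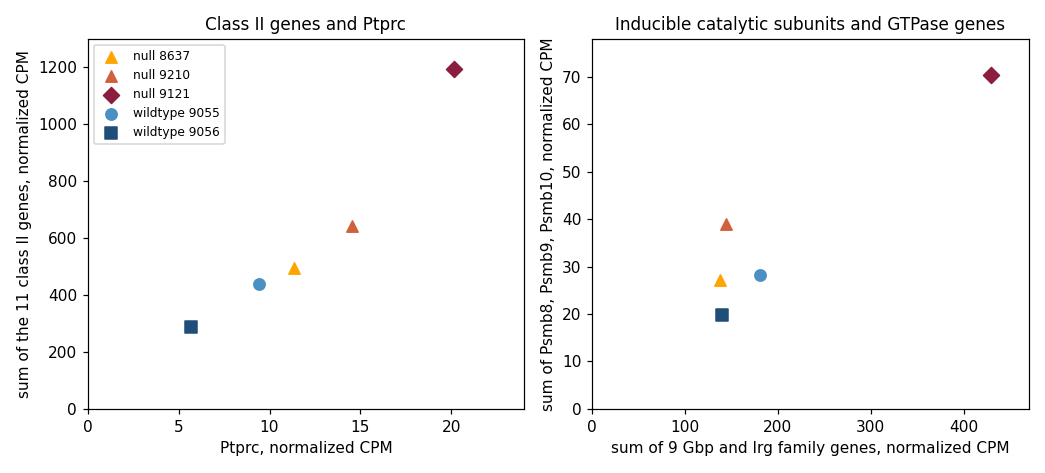
Left, the summed normalized CPM of the 11 class II genes against Ptprc, and right, the sum of Psmb8, Psmb9 and Psmb10 against the sum of 9 interferon-induced GTPase genes, with 1 point per mouse. On the left the 5 mice follow 1 order on both axes, and on the right mouse 9121 stands alone at 429 on the horizontal axis while the others lie between 138 and 180.5.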

How the data were processed

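The authors prepared TruSeq RNA libraries from frozen kidney tissue, sequenced them as paired ends, aligned quality-filtered reads to mm10 with TopHat 2.1.0 and counted reads per gene symbol with HTSeq 0.6.1. The deposited values are raw counts per gene and mouse, not normalized. HTSeq's own rows for reads on no gene, on several genes or aligned to several places (39.0 to 42.8% of all per mouse) stayed out of library sizes and tests. The kit as named does not mark strand, so overlapping genes on opposite strands cannot be told apart.

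Counts were normalized by TMM (factors 0.914 to 1.09) and fitted over 13874 genes in edgeR 4.0.16 (R 4.3.3) with the quasi-likelihood test, and p-values were adjusted by Benjamini-Hochberg over all genes tested. A call needed an FDR of 0.05 and 2-fold. Standard errors came from the fold change and its F statistic. The tests are two-sided. Alternatives were edgeR's exact test, DESeq2 1.42.0, the legacy quasi-likelihood fit, other scalings, other filters and leaving out each mouse. The script was tested on simulated data. Values per mouse are given for members called by either edgeR test, averaging 20 normalized CPM or more, or belonging to the classical chains and their direct partners. Locations and exon lengths are from GENCODE M21 (GRCm38, the assembly of mm10), and levels per kilobase use the union of a gene's exons. The members, lists and motifs were chosen with earlier results of these data known, and no test was run over a list. Each mouse carries its own number in the labels and was treated as independent, although the sample titles do not state how the mice are related. Mice correlated at 0.974 to 0.993 within a group and at 0.957 to 0.988 between groups (Pearson's r of log2 CPM over genes), and null mouse 8637 correlated more with wildtype mouse 9055 (0.988) than with null mice 9210 (0.987) and 9121 (0.974). No mice had identical files. 1 marker gene of the lists is not reported here.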

Additional observations from a re-analysis of the deposited data

How the results depend on the processing

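The number of members called higher in null tissue was 0 with all mice in the quasi-likelihood test, 3 with edgeR's exact test and 6 with DESeq2, and it ran from 0 to 8 when 1 mouse was left out, the 8 coming without null mouse 8637. Chosen after seeing the data, the exact test without mouse 9121 called 2 and without mouse 8637 called 13. No member was called lower in any of these. The median log2 fold change of the members ran from 0.37 (without null mouse 9121) to 0.88 (without 8637) over the fits that left out a mouse. Scaling by library size only moved the median of all genes by 0.17 and that of the members to 0.88, with 34 members positive; relative to that shift the members' median was about as with TMM. Under it, H2-T23 turned to 0.031 and H2-Ke6 to 0.0012. The causes were not tested. The other 23 members given per mouse kept their sign in every alternative. No paired analysis was possible because the null and wildtype mice share no replicate numbers. Levels under 0.158 to 0.186 normalized CPM, depending on the mouse, were below what 3 counts allow, a limit that covers counting error only.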
